A study of Oryctolagus cuniculus with 3 samples.

Results

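Back skin of a black and of a white Rex rabbit was compared by RNA-seq, with 1 library from 1 animal on each side. These are 2 of the 3 libraries of the study, chosen by their coat colour labels alone. The third library, from a chinchilla-coloured sibling, was used only to see where its levels lay. The black, white and chinchilla animals were Rex rabbits, a breed with short plush fur, were healthy full siblings from the same litter, shared the same rearing conditions, and were sampled at 42 days of age, at the first moult. The labels do not state genotypes at colour genes or the animals' sex.

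Fur colour comes from melanin, which pigment cells called melanocytes make in the hair follicle from the amino acid tyrosine, with tyrosinase as the rate-limiting enzyme, and pass to the growing hair shaft in organelles called melanosomes. Signalling through the melanocortin 1 receptor favours dark eumelanin, and the agouti signalling protein opposes it. White fur can follow from a loss of pigment synthesis or from a loss of the pigment cells. A piece of whole skin also holds keratinocytes, fibroblasts, glands, vessels, fat and often a sheet of muscle. In such a sample, fewer cells of a type and less RNA per cell cannot be told apart.

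The deposited lists give Ensembl rabbit protein identifiers without gene symbols, and the RefSeq gene table at hand lists an Ensembl identifier for 0 of its 38822 genes. Pigment genes and the markers of skin cell types could therefore not be followed, and the tissue label could not be checked against its markers. Entries are called coding sequences here, since every listed length is a multiple of 3, and most are described by that length. Assigned reads came to 16.2 M (M for mega) for black, 14.8 M for white and 15 M for chinchilla skin. Levels are given as RPKM, which are reads scaled to a kilobase of coding length and to 1 M assigned reads. With 1 animal per coat colour nothing could be tested between animals. Intervals beside ratios are exact 95% intervals that cover counting error only.

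Most coding sequences lay close together in the black and the white skin, and those that did not were mainly higher in black. Reads were found for 15271 coding sequences in either library and for 14108 in both, or 92.4%. Among the 12401 with at least 1 RPKM in either library, 9475 (76.4%) differed by less than 1.5-fold on the log2(RPKM + 1) scale, which understates the fold of low levels. The median difference, black minus white, was 0.02 (log2), and 90% of the differences fell between -0.69 and 1.05, so the upper side reached further. By the rule of at least 2-fold on this scale, 700 were higher in black (5.64% of those compared) and 207 were lower (1.67%). The counting interval of the ratio lay above 1 for 696 of the 700 and below 1 for 203 of the 207. Both sets were chosen for a 2-fold difference in these same reads, so this largely follows from the choice. The interval lay wholly beyond 2-fold for 544 of the 700 and for 111 of the 207. Of the 700, 26 had 0 reads in white and 97 had 1 to 9. Of the 207, 12 had 0 reads in black and 32 had 1 to 9. The numbers called depend on the pseudocount: 1085 and 372 passed with 0.1 in place of 1, and 240 and 88 with 5.

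**Figure D1:**
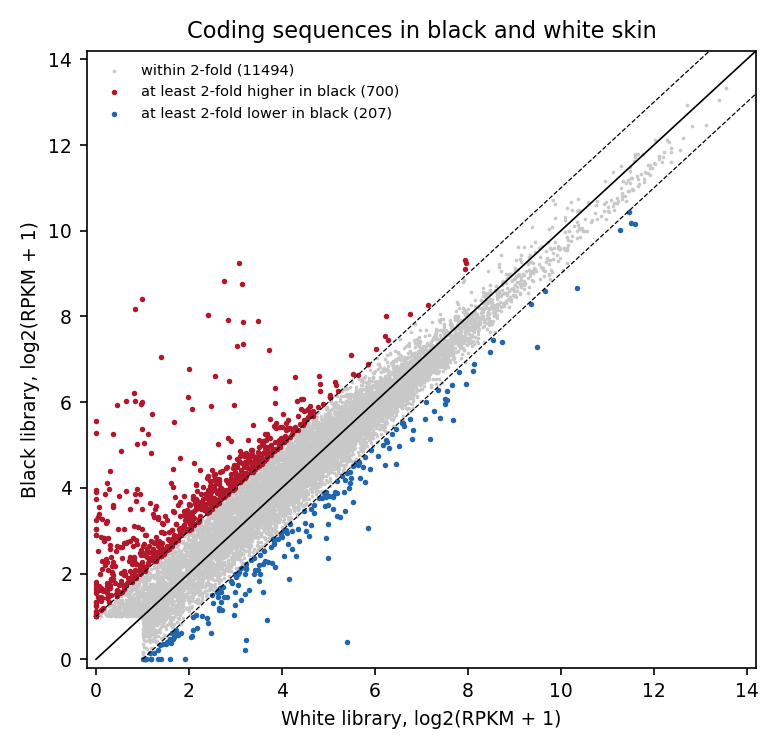
Levels of 12401 coding sequences in the white library (horizontal axis) and the black library (vertical axis), both as log2(RPKM + 1). The solid line marks equal levels and the dashed lines 2-fold differences. The 700 higher in black include a loose cloud far above the upper line, while the 207 lower in black mostly hug the lower one.

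The stronger the difference, the more one-sided it was. Past 4-fold, black was above white for 110 coding sequences (0.887%) and below it for 12 (0.0968%). Past 8-fold the numbers were 56 (0.452%) and 2 (0.0161%). The 56 had a median of 42.7 RPKM in black against 0.827 RPKM in white skin. Of these, 14 had at least 100 RPKM in black, and the same 14 made up all the 4-fold higher ones above that level. The 110 took 1.28% of the reads in black skin (exact interval 1.28 to 1.29) and 0.0625% in white (0.0613 to 0.0638). The median coding length was shorter for the sets at the higher thresholds, which are part of the 700. The 700 had a median length of 2019 bases, the 110 of 1238 bases and the 56 of 1185 bases, where all those compared had 1308 bases. Very long ones were still over-represented, since 8 of the 98 with at least 8000 bases (8.16%) were 4-fold higher in black, against 0.887% of all. With the trend over coding length removed, as described below, 3 of the 98 were 4-fold higher.

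The coding sequence with the largest difference in log2(RPKM + 1), ENSOCUP00000003355 of 411 bases, was nearly missing from the white library alone. It reached 338 RPKM in the black skin, 0.985 in the white and 482 in the chinchilla skin. Black exceeded white 344-fold (interval 158 to 937), and chinchilla exceeded black, with a black to chinchilla ratio of 0.701 (0.664 to 0.741). Its 6 reads in white skin covered 36.5% of it, where 6 evenly placed reads would cover 74.9%. The 2258 reads in black skin covered 99.3%.

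The others of the 12 coding sequences with the largest log2 difference had a different order, with black far above both siblings. ENSOCUP00000017571, of 5838 bases, reached 288 RPKM in the black skin, 0.797 in the white and 2.71 in the chinchilla skin. Black exceeded white 361-fold (285 to 464) and chinchilla 106-fold (93.6 to 121). Its 27301 reads in black skin were more than those of any other coding sequence among the 12. A coding sequence of 5835 bases, close to it in length, reached 59.8 RPKM in the black skin, 0.370 in the white and 4.74 in the chinchilla skin, with black 162-fold above white (114 to 237). Whether these long sequences belong to related genes is not known here, and unique reads may be split or lost between near-identical copies.

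Below these came a group that was abundant in black skin and low but well covered in white. The coding sequence of 1614 bases reached 611 RPKM in the black skin, 7.48 in the white and 18 in the chinchilla skin. That of 1134 bases had 453, 5.77 and 11.2 RPKM respectively. The one of 2019 bases had 434, 7.88 and 15.2 RPKM. All of these kept the order black, chinchilla, white, with black 81.7-fold above white for the first (70.5 to 95.2), 78.6-fold for the second (64.3 to 97.0) and 55.0-fold for the third (48.4 to 62.8). In white skin their reads still covered 99.4%, 95.5% and 98.3% of the sequence.

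The remaining members of the 12 ranged from 225 to 2955 bases. A coding sequence of 2955 bases reached 132 RPKM in the black skin, 1.62 in the white and 6.45 in the chinchilla skin. A short one of 579 bases had 261, 4.31 and 24.8 RPKM, the second highest chinchilla level of the 12. In white skin these were covered less than evenly placed reads would reach, the first at 76.8% against 90.1% and the second at 70.6% against 95.8%. One of 897 bases had 72.8, 0.752 and 2.60 RPKM, and one of 2679 bases had 64.2, 0.554 and 2.12 RPKM. Black thus stood apart from both siblings in each of these. Over all 12, the chinchilla level was nearer to white than to black in 11 on the log2(RPKM + 1) scale. By plain RPKM ratios the 5835-base sequence was about midway, with chinchilla 12.8-fold above white and black 12.6-fold above chinchilla. In 11 of the 12 chinchilla exceeded white with a counting interval above 1. The short ones of 225 and 684 bases had 0 reads in white skin and are given with the absent sequences.

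**Figure D2:**
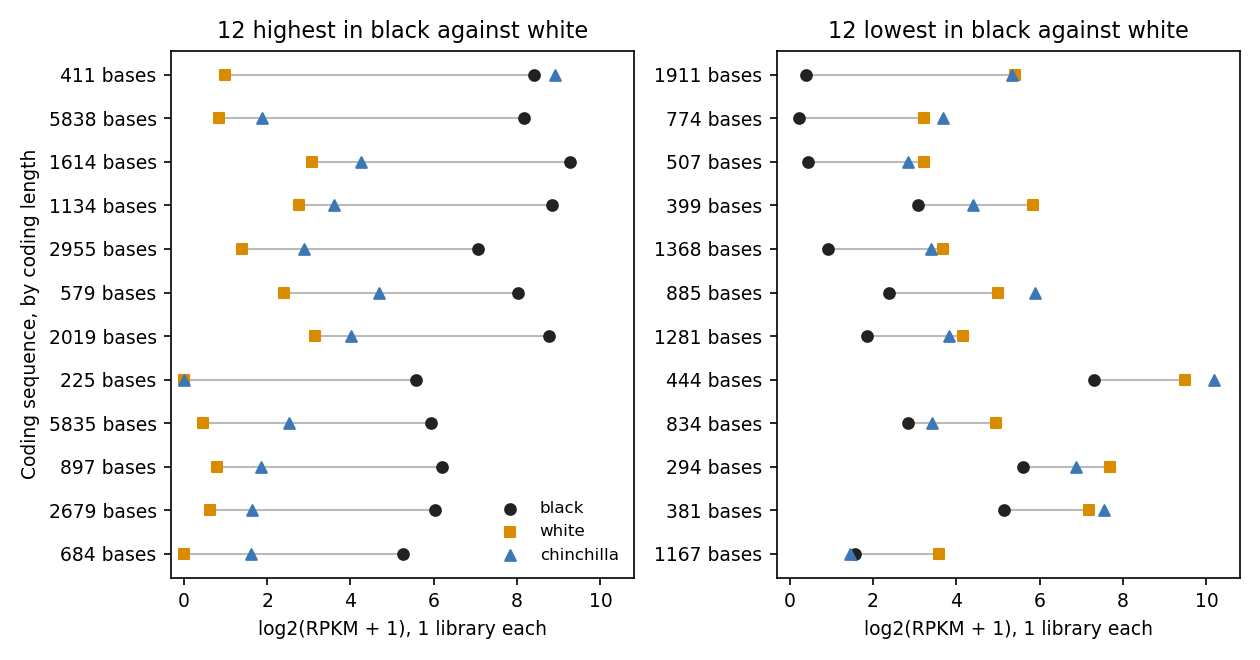
The 12 coding sequences with the highest and the 12 with the lowest difference between black and white skin, by coding length, with log2(RPKM + 1) in the black (circles), white (squares) and chinchilla (triangles) library. Grey lines join black and white. On the left, chinchilla lies nearer to white in 11 of 12, the exception being the 411-base sequence. On the right it lies nearer to white in 9 of 12.

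Some coding sequences were found in black skin and not at all in white. In all, 687 had reads in black only and 476 in white only, with a median of 2 reads in each case, and 494 of the 687 and 366 of the 476 had at most 3 reads. An expected number of up to 3 reads is possible behind a count of 0. With at least 10 reads, 49 remained for black and 11 for white, and with at least 100 reads, 7 for black and 0 for white. The largest number of reads without any in the other library was 1032 for black and 52 for white.

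The 5 black-only coding sequences with most reads divided by their chinchilla level. One of 4410 bases had 1032 reads (14.4 RPKM) in black, covering 96.1% of it, 0 in white and 17 reads (0.257 RPKM) in chinchilla skin. Against a limit of 3 reads in white it was at least 314-fold higher in black. This bound and the like ones that follow take the limit for the empty library and leave out counting error in the other. One of 684 bases had 418 reads (37.6 RPKM) in black, 0 in white and 21 reads (2.05 RPKM) in chinchilla skin, at least 127-fold higher in black than in white. The other members of the 5 had no chinchilla reads either. They were a sequence of 225 bases with 170 reads (46.5 RPKM), 1 of 834 bases with 166 reads (12.3 RPKM) and 1 of 1284 bases with 135 reads (6.47 RPKM), at least 51.7-fold, 50.5-fold and 41.1-fold higher in black than in white. Reads covered 97.8%, 99.4% and 97.5% of them, so they were spread over nearly the whole sequence in black skin.

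In the other direction, the 5 coding sequences absent from black with most reads in white were low. The one with most reads, of 1269 bases, had 0 reads in black, 52 in white (2.76 RPKM) and 34 in chinchilla skin (1.79 RPKM), at least 19.0-fold higher in white than in black. One of 1101 bases had 0, 25 and 2 reads in black, white and chinchilla skin, and one of 1827 bases had 0, 17 and 0 reads. One of 888 bases had 0, 14 and 13 reads, and one of 2004 bases had 0, 13 and 4 reads. None of these reached 3 RPKM in white, and chinchilla levels ran from none to near the white level.

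Few coding sequences were strongly lower in black skin. ENSOCUP00000020789, of 1911 bases, reached 0.322 RPKM in the black skin, 41.3 in the white and 39.2 in the chinchilla skin. White exceeded black 128-fold (69.4 to 268), while the chinchilla to white ratio was 0.949 (0.873 to 1.03), an interval that holds 1. Its reads were confined to part of the sequence in white and in chinchilla skin. They covered 52.2% and 49.1% of it, where 1170 reads placed evenly along the sequence would cover 99.9%. ENSOCUP00000022437, of 774 bases, had 0.159 RPKM from 2 reads in black, 8.28 in the white and 11.7 in the chinchilla skin, with white 52.0-fold above black (14.0 to 436). It too was covered in part, 72.7% in white skin against 98.3% for even placement.

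The rest of the 12 lowest had RPKM 4.23- to 23.0-fold higher in white than in black, and 3 of the 12 had at least 100 RPKM in white skin. The coding sequence of 444 bases was the most abundant, with 156 RPKM in the black skin, 719 in the white and 1157 in the chinchilla skin. White exceeded black 4.61-fold there (4.32 to 4.92). One of 294 bases reached 47.1 RPKM in the black skin, 205 in the white and 116 in the chinchilla skin, and one of 381 bases had 34.1, 144 and 187 RPKM. Black was the lowest of the siblings in each of these.

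In 3 of the 12 the chinchilla level was nearer to black on the log2(RPKM + 1) scale, with white the highest of the siblings in each. The coding sequence of 1167 bases reached 1.95 RPKM in the black skin, 11.0 in the white and 1.71 in the chinchilla skin, and the black to chinchilla ratio of 1.14 had an interval that holds 1 (0.685 to 1.91). One of 834 bases reached 6.13 RPKM in the black skin, 30.1 in the white and 9.67 in the chinchilla skin. One of 399 bases had 7.41, 56.5 and 20.1 RPKM. By plain RPKM ratios chinchilla was about midway there, with a chinchilla to white ratio of 0.355 and a black to chinchilla ratio of 0.369.

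Counted in reads within the 2-fold sets, the loss in black skin lay in very few abundant coding sequences, while the gain was spread over many. Abundant coding sequences less than 2-fold apart are left out of this, though they shift many reads too. One of 4149 bases had 529978 reads in black and 412158 in white, and one of 1707 bases had 156642 and 225404. The 700 higher ones took 5.32% of the reads in black (5.31 to 5.33) and 1.61% in white (1.60 to 1.62). The 207 lower ones took 1.79% in black (1.79 to 1.80) and 4.53% in white (4.52 to 4.54). The net gain over the 700 was 37141 reads per 1 M assigned reads, of which the 5 largest contributors gave 15.6%. Over the 207 the net was -27398 reads on the same scale, and the 5 largest gave 82.8% of it.

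Of those 5 contributors to the loss, all but the last had over 1000 RPKM in each of the skins. The first, of 4095 bases, reached 1136 RPKM in the black skin, 3108 in the white and 1604 in the chinchilla skin, and white exceeded black 2.73-fold (2.71 to 2.76). The second, of 4395 bases, had 1161, 2914 and 1862 RPKM, a 2.51-fold excess (2.49 to 2.53). The third, of 3585 bases, had 1031, 2463 and 1213 RPKM, a 2.39-fold excess (2.37 to 2.41). In all of these white was the highest of the siblings and chinchilla lay between. A coding sequence of 918 bases had 1390, 2813 and 1910 RPKM, also with chinchilla between, and one of 2946 bases had 118 RPKM in black against 278 in the white and 279 in the chinchilla skin. These 5 passed 2-fold by a small margin in size, at up to 2.73-fold, but from 5639 to 189905 reads each, and the intervals are correspondingly narrow.

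The 5 largest contributors to the gain over the 700 were a mixed set. The 5838-base and 1614-base sequences named above were among them. One of 6798 bases reached 256 RPKM in the black skin, 74.4 in the white and 92.3 in the chinchilla skin, 3.44-fold higher in black than in white (3.35 to 3.53). One of 2565 bases had 640, 244 and 143 RPKM, 2.62-fold higher in black than in white (2.56 to 2.68), and was the one of the 700 with the highest black level. The longest coding sequence of both lists, of 93396 bases, had 14415 reads in black (9.50 RPKM), 55 in white (0.0397 RPKM) and 448 in chinchilla skin (0.320 RPKM). Black exceeded white 239-fold there (184 to 318), a difference that log2(RPKM + 1) puts far lower because the white level is small beside the pseudocount.

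The direction of the differences ran with coding length. Below 500 bases, 52 of 1304 coding sequences were 2-fold higher in black and 61 lower. Of 3067 with 500 to below 1000 bases, 92 were higher and 86 lower, and of 4634 with 1000 to below 2000 bases, 204 and 49. From 2000 to below 4000 bases the numbers were 201 and 9 of 2623, and from 4000 to below 8000 bases 115 and 2 of 675. Of 98 with at least 8000 bases, 36 were higher and 0 lower. The median difference ran with it, from -0.32 (log2) in the shortest class to 0.83 in the longest, and 94.9% of the longest class lay above 0. Between the chinchilla and the white library, the same medians stayed between 0.00 and 0.10.

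**Figure D3:**
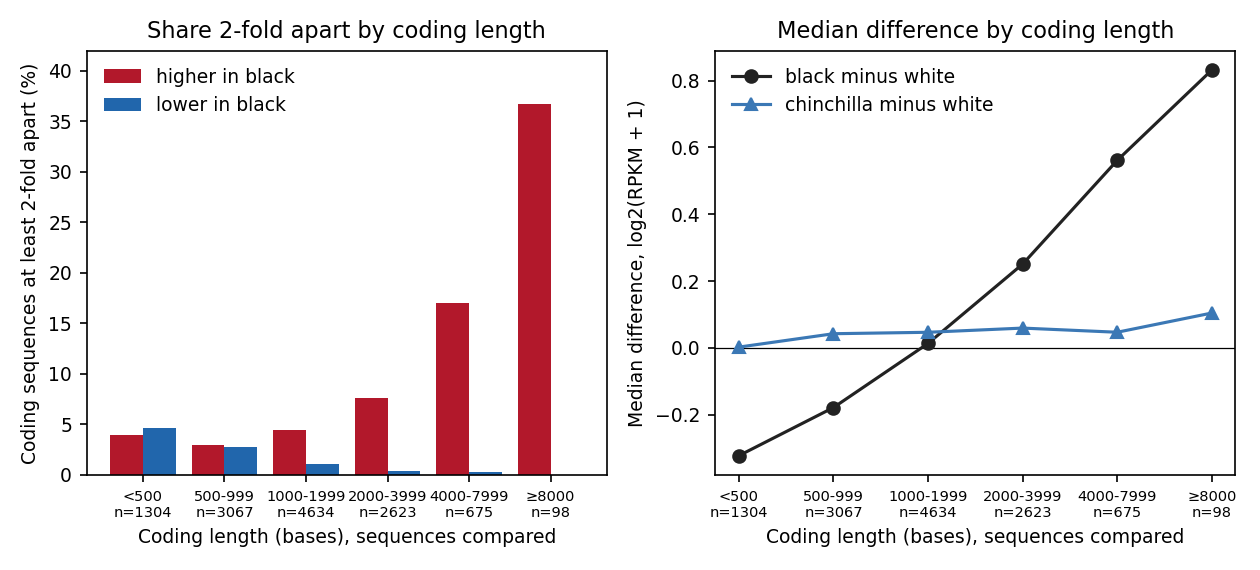
Left, bars give the percentage of coding sequences at least 2-fold higher or lower in black than in white skin, by class of coding length, with the number compared under each class. Right, the median difference of log2(RPKM + 1) in the same classes, black minus white (circles) and chinchilla minus white (triangles). The share higher in black reaches 36.7% in the longest class, and the chinchilla line stays flat.

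Coverage along the sequence differed with length as well. All 920 entries with 1 read and more than 100 bases were covered over 100 bases, which gives the read length and with it the coverage that evenly placed reads would reach. Coding sequences were matched where black and white skin each gave between 50 and 200 reads and the read numbers differed by at most 25%. Those of 2000 to below 4000 bases had median covered shares of 88.7% in black and 85.5% in white skin (111 sequences). They fell short of even placement by a median of 7.58 percentage points in black and 10.1 points in white, and black was the better covered for 71.2%. From 1000 to below 2000 bases the shortfall was 2.51 and 3.28 points (327 sequences), and below 500 bases 1.42 and 1.58 points (117 sequences). Between 500 and 1000 bases it went the other way, at 2.18 points in black and 1.64 in white, and 40.5% of 274 sequences were better covered in black. From 4000 bases only 9 sequences could be matched. The part that this difference between libraries has in the calls was not tested, but the calls can be given with the trend over length removed.

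With that trend removed by a smooth curve, 553 coding sequences were higher and 163 lower in black, and 452 of the 700 and 129 of the 207 were kept. The 248 that dropped out had a median length of 3843 bases. Among those higher in black, 96 of the 110 at 4-fold and 49 of the 56 at 8-fold were kept. Among those lower in black, 7 of the 12 at 4-fold and 1 of the 2 at 8-fold were kept. The sequences of 444, 294 and 381 bases then stood at log2 differences of -1.93, -1.78 and -1.76, short of 4-fold. Removing the trend took the log2 difference of the 5838-base sequence from 7.33 to 6.73, that of the 6798-base one from 1.77 to 1.11 and that of the 93396-base one from 3.34 to 1.61. The 93396-base sequence is the longest of both lists and lies at the far end of the curve, so its corrected value is the least sure of these. The sequence of 918 bases, at -1.02, no longer passed 2-fold, at -0.91. The abundant sequences of 4095, 4395 and 3585 bases went against the trend, being long and lower in black.

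The chinchilla library played no part in choosing the coding sequences that differed, and it lay mostly on the white side. Of the 700 higher in black, 645 (92.1%) had a chinchilla level nearer to white than to black on the log2(RPKM + 1) scale, and 55 nearer to black. Over all 12401 compared, chinchilla was nearer to white in 8804, or 71.0%. The 700 had median levels of 12.5 RPKM in the black skin, 3.49 in the white and 4.19 in the chinchilla skin. Of the 207 lower in black, 156 (75.4%) were nearer to white, a share close to that of all, with medians of 5.72 RPKM in the black skin, 16.1 in the white and 13.2 in the chinchilla skin. Both sets were chosen for a large distance of black from white, so anything particular to the single black library enters this distance and leaves chinchilla near white.

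**Figure D4:**
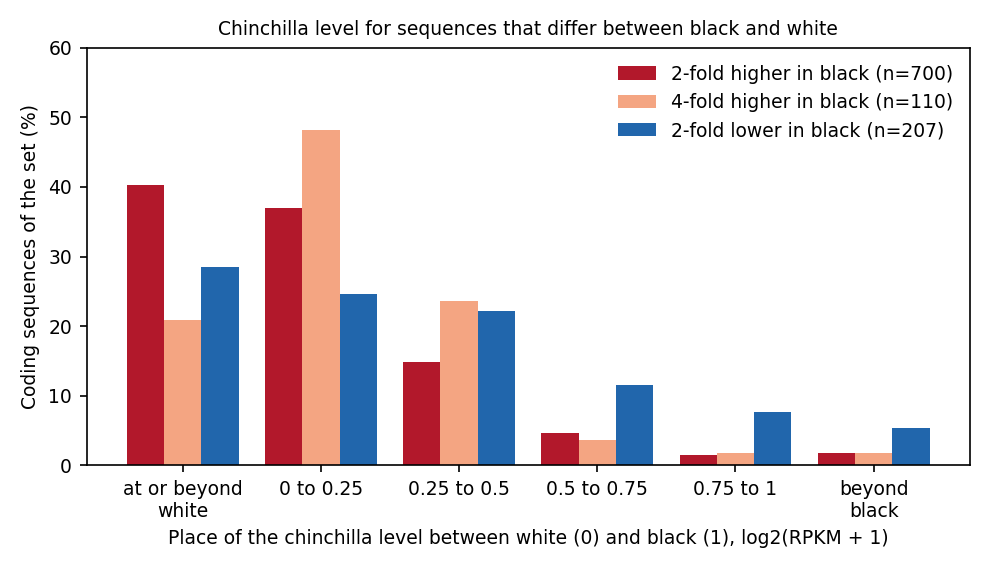
Place of the chinchilla level on the line from the white level (0) to the black level (1), in log2(RPKM + 1), as the percentage of coding sequences that were 2-fold higher, 4-fold higher or 2-fold lower in black than in white skin. In all of these sets the bars fall off toward black. The 4-fold higher set has its highest bar just above white, at 48.2%.

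For most of the strongest differences, chinchilla lay above white but nearer to white than to black. Of the 110 at least 4-fold higher in black, 23 had a chinchilla level at or below white, 53 lay up to 25% of the way from white to black, and the median place was 15.0% of the way. The median difference of chinchilla from white was 0.41 (log2) over the 110 and 0.85 over the 56 at least 8-fold higher, beside 0.05 over all. Beside these, the median difference of black from white was 3.03 over the 110 and 4.11 over the 56, and both differences share the white library. At such low levels the pseudocount shrinks the distance of chinchilla from white. Median levels over the 56 were 2.65 RPKM in chinchilla and 0.827 in white skin, and 21 of the 56 were at least 2-fold above white in chinchilla. The 110 took 0.126% of the reads in chinchilla and 0.0625% in white skin.

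Of the 110, 8 had a chinchilla level nearer to black than to white. Besides the 411-base sequence, the most abundant was one of 501 bases, with 232 RPKM in the black skin, 7.94 in the white and 55.9 in the chinchilla skin. One of 1239 bases had 43.3, 9.42 and 34.0 RPKM, and one of 1092 bases had 35.0, 6.18 and 18.3 RPKM. One of 1236 bases reached 7.67 RPKM in the black skin, 0.764 in the white and 7.17 in the chinchilla skin, and one of 264 bases 7.23, 0.511 and 7.58 RPKM. The coloured skins were nearly level in both. The others were one of 315 bases, at 31.7, 0.856 and 10.4 RPKM, and one of 3876 bases, at 10.4, 0.974 and 3.75 RPKM, where chinchilla lay between.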

How the data were processed

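RNA-seq of back skin from 3 rabbits was used, 1 library each. Per the labels' protocols, TRIzol RNA went through oligo(dT) enrichment and fragmentation. The authors deposited, per the file headers, read counts of unique reads, a length, the covered percent of it and RPKM values per Ensembl protein. RPKM recomputed from the counts differed by at most 1.6e-14 (relative). Not given in the sources used here are the aligner, genome build, annotation and strand handling. Reads of genes that overlap antisense could thus be mixed.

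Libraries were joined on the identifier, and a missing identifier was taken as 0 reads. Differences are log2(RPKM + 1), called at 2-fold where the higher of both libraries has 1 RPKM or more. Ratio intervals are Clopper-Pearson intervals of the conditional binomial share of reads. No molecular identifiers are named in the labels, so reads may repeat molecules. The trend over log2 length was fitted and subtracted with lowess, using a fraction of 0.3. Printed were the 12 highest and 12 lowest log2 differences, the 5 with most reads among those absent from either library, and, chosen after their values were seen, the 5 largest contributors to net reads and the 8 nearest to black in chinchilla. The 6 with the largest RPKM gain and loss were also in the rule. Of the named sequences only the 2 highest and 2 lowest are given by identifier. The fixed gene lists were not evaluated, for want of symbols. Members, lists and settings were chosen with earlier results of these data known. Scripts were tested on simulated data. TMM factors came from edgeR 4.0.16 in R 4.3.3, lowess from statsmodels 0.14.6, intervals from SciPy 1.17.1 and plots from matplotlib 3.10.9, under Python 3.11.15 with pandas 2.3.3 and NumPy 2.4.6.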

Additional observations from a re-analysis of the deposited data

How the results depend on the processing

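The main counts were 700 coding sequences higher and 207 lower in black. A pseudocount of 0.1 gave 1085 higher and 372 lower, 5 gave 240 and 88, and the 4-fold threshold 110 and 12. Intervals wholly beyond 2-fold, on ratios without a pseudocount, numbered 577 and 112. Leaving out the floor could change no call, since 2-fold with a pseudocount of 1 already requires at least 1 RPKM. A floor of 5 RPKM, at least 10 reads, removal of the length trend and median-ratio, TMM or upper-quartile scaling stayed within 1.5 times for both. The share of called sequences that were higher in black was 77.2%, and between 70.1% and 74.5% under these 3 scalings. Chinchilla was nearer to white in 84.3% of those higher in black with a pseudocount of 0.1, in 95.8% with 5 and in 95.1% at a mean of at least 5 RPKM, beside 92.1%. A minimum of 10 reads left 60 of 1163 coding sequences seen in a single library. The reads taken in black by those higher in black went from 5.32% to 1.28% at 4-fold. Of 168 alternative values for 42 named sequences, 1 changed sign and 44 moved by more than the counting interval allows. The 44 were 17 with a pseudocount of 5, 6 with 0.1, 14 with the length trend removed and 7 with median-ratio scaling. Named sequences with 0 reads in black or white have an interval without a limit, so none of their values could count as moved. Yet the log2 difference of the 4410-base one went from 3.95 to 7.18 with a pseudocount of 0.1 and to 1.96 with 5. The sign changed for the 4149-base sequence, with the largest RPKM gain in black (log2 difference 0.23), which was -0.23 with the length trend removed. The alternatives for gene lists were not run, for want of symbols. No paired analysis was possible because there was 1 library per coat colour, and no library could be left out. Depth limits mainly levels behind a few reads.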

Other observations

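Of the 6 largest gains of black skin in RPKM, 4 came from coding sequences abundant in all siblings, and the others were those of 1614 and 1134 bases. One of 4149 bases reached 7865 RPKM in the black skin, 6699.5 in the white and 3465 in the chinchilla skin, although black exceeded white only 1.17-fold (1.17 to 1.18) and the sign turned with the length trend removed. One of 564 bases reached 1688 RPKM in the black skin, 914 in the white and 2461 in the chinchilla skin, where white was the lowest. One of 1149 bases had 1571, 943 and 545 RPKM, and one of 1155 bases 1639, 1191 and 716 RPKM, where chinchilla was the lowest. The largest losses ran the other way, with white between black and chinchilla for the sequence of 1707 bases (5650, 8905 and 15600.1 RPKM in black, white and chinchilla skin). The sequences of 1890 bases (3806, 6019.9 and 9858 RPKM) and 300 bases (3120.3, 5275 and 10423 RPKM) had the same order, and for the one of 1350 bases (8475, 10880.3 and 5745 RPKM) chinchilla was the lowest. For one of 345 bases, with 4564, 6359 and 6524 RPKM, white and chinchilla lay close and black below. With the length trend removed, the log2 difference of the 300-base sequence went from -0.76 to -0.44 and that of the 345-base one from -0.48 to -0.18.

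Reads of some coding sequences lay on a part of the sequence. With at least 100 reads, 3.76% of the 9983 compared in black and 4.60% of the 9660 in white were covered at least 20 percentage points less than evenly placed reads would reach. Among those 2-fold lower in black the shares were 9.64% of 83 in black and 11.1% of 135 in white skin, and among those 2-fold higher 1.96% of 560 and 6.32% of 364.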
